A study of Mus musculus with 107 samples.

Results

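The comparison is between neural progenitor cells (NPC) grafted into injured mouse spinal cord and the same kind of cells grafted into uninjured cord, both recovered at 14 days, a time that one source counts from injury and another from grafting. Its members were chosen by sample title: 5 libraries of NPC in spinal cord injury (SCI) and 5 of NPC in uninjured spinal cord, 10 of the 107 libraries in the series. The NPC were derived from 1 female mouse embryonic stem cell line that is labelled C57BL/6 and RiboTag +, so that every grafted cell carries a haemagglutinin tag on the ribosomal protein Rpl22. Tagged ribosomes were pulled down from a short segment of cord around the graft and the RNA bound to them was sequenced, without sorting cells first. In the SCI group the hosts, which were untagged C57BL/6 mice at least 8 weeks old, had received a severe crush at T10 and the NPC 2 days later in a hydrogel; in the uninjured group the same preparation went into intact cord. The 5 libraries of a group come from separate mice, and the labels do not say at which passage the NPC were grafted. For comparison, 9 libraries of healthy host astrocytes and 5 of host astrocytes 14 days after SCI were used, labelled 73.12 Gffap-Ribotag, in which a Gfap-driven Cre switches the same tag on in the animal's own astrocytes.

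NPC can mature into astrocytes and oligodendrocytes. Astrocytes next to a lesion become reactive and can form a border around blood and inflammatory cells, a behaviour close to that of the astrocytes of the glia limitans that line the surface of the uninjured brain and cord. Reactive astrocytes raise cytoskeletal, acute phase and complement genes through gp130 receptors and the transcription factor STAT3. Healthy mature astrocytes supply neurons with cholesterol, recycle transmitter and buffer ions. The study asked whether the tissue around the graft, injured or not, shapes which of these states the progeny take.

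The 10 graft libraries held 40506790 to 85474297 counts. SCI 5 stood apart from the other libraries of its group: its 100 most abundant genes took 47.4% of its counts, against 28.1% to 35.7% in the other SCI libraries and 21.4% to 24.6% in the uninjured ones, and its TMM factor was 0.76. Lars2, a mitochondrial leucyl-tRNA synthetase picked after its values were seen, lay between 1744 and 33420 CPM (counts scaled to the library's total, and by TMM here and for all graft levels below) in the SCI grafts, highest in SCI 5, and between 912 and 1545 in the uninjured grafts. Gfap, the astrocyte intermediate filament, was abundant in all 10 libraries at 6662 to 17937 CPM. Some RNA that the cultured line hardly makes was also present: Xist, the RNA that silences an X chromosome, reached at most 0.385 CPM of library totals in the 69 culture libraries of the line, but 12.5 to 122 in the SCI grafts and 10.6 to 65.0 in the uninjured grafts. The study reports that a pull-down from injured cord without tagged cells gave minimal RNA and no transcripts of the tag. It found no difference in the frequency of tag transcripts between grafts recovered at 5 days and NPC before grafting. In the 10 libraries used here host RNA carried over into the pull-down was not measured directly, and its part in the results below was not tested.

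Of the 15813 genes tested, 734 (4.64%) differed between grafts in SCI and in uninjured cord at an adjusted p below 0.01. The test was the edgeR quasi-likelihood test with Benjamini-Hochberg adjustment. Of these genes 330 were higher in SCI (2.09%) and 404 lower (2.55%). Most genes of the glia limitans and of acute reactivity, the metallothioneins and 3 Id factors rose, while most genes of cholesterol synthesis and some of myelin and of neurons fell. The levels of 1757 genes did not overlap between the groups (11.1%), and the median log2 fold change (log2FC, SCI minus uninjured) over all genes tested was −0.05. The counts depended on the libraries. Without SCI 5 there were 753 higher and 823 lower genes, whereas without SCI 3 there were 136 and 96. With library totals in place of TMM, which moved the median of all genes to −0.32, 174 genes were higher and 1203 lower, so that 12.6% of the changed genes were higher instead of 45.0%. Of the 95 changed genes whose log2FC is given below, 51 kept their call in all 10 fits that left out 1 library, 12 lost it without TMM and 3 lost it without both libraries numbered 5.

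**Figure D1:**
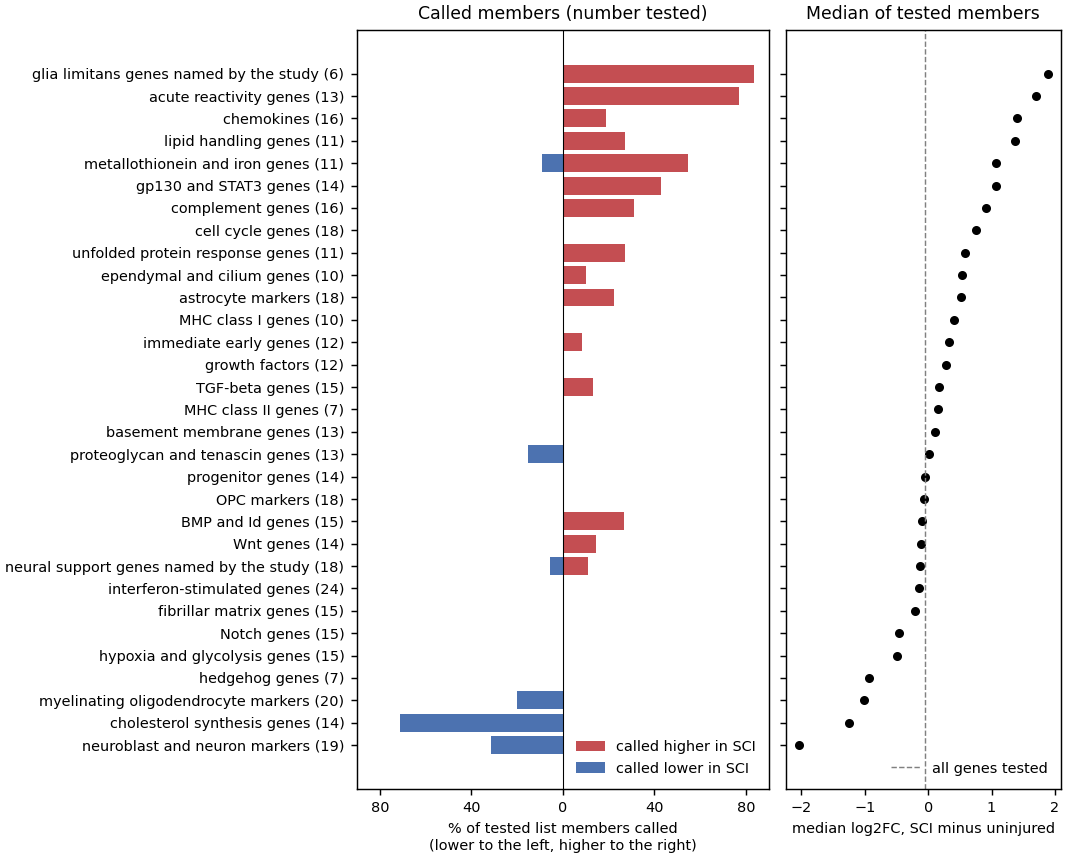
The left panel shows for each gene list the percentage of its tested members called higher (right) or lower (left) in SCI, with the number tested in brackets, and the right panel the median log2FC of the tested members beside the median of all genes. Glia limitans and acute reactivity genes stand at the top, with 5 of 6 and 10 of 13 members higher, and cholesterol synthesis genes near the bottom, with 10 of 14 lower.

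Of 6 genes the study names as glia limitans genes, 5 rose in SCI and none fell, with a median log2FC of 1.89. The study names them when it describes these same grafts, so their direction is not independent evidence. Myoc, which encodes the secreted glycoprotein myocilin, was at 493, 463, 360, 408 and 326 CPM in SCI grafts 1 to 5 and at 44.9, 40.1, 46.1, 40.6 and 46.9 CPM in uninjured grafts 1 to 5. The 2 groups were far apart and each was tight (log2FC 3.23 ± 0.18 SE, adjusted p = 3.28e-07 by edgeR, n = 5 per group). Chil1, a secreted chitinase-like protein of reactive astrocytes, was at 2019, 2674, 2778, 2268 and 1230 CPM in SCI and at 167, 56.8, 37.0, 81.4 and 67.3 in uninjured cord (log2FC 4.74 ± 0.41, adjusted p = 3.39e-05 by edgeR). Id3, an inhibitor of basic helix-loop-helix factors, stood at 398, 415, 488, 739 and 312 CPM against 87.4, 85.0, 84.1, 80.0 and 87.7 (log2FC 2.47 ± 0.22, adjusted p = 3.39e-05 by edgeR). None of these 3 genes had overlapping groups, and all 3 kept their call whichever library was left out. Vim, encoding vimentin, rose by 1.31 and the complement gene C4b by 0.89 on the log2 scale. Vim lost its call in 6 of the 10 fits that left out 1 library, with a highest adjusted p of 0.0186 without SCI 3, and C4b in 7 of 10, with 0.0344 without SCI 3. With library totals in place of TMM neither passed the threshold, at adjusted p = 0.0215 and 0.0883.

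**Figure D2:**
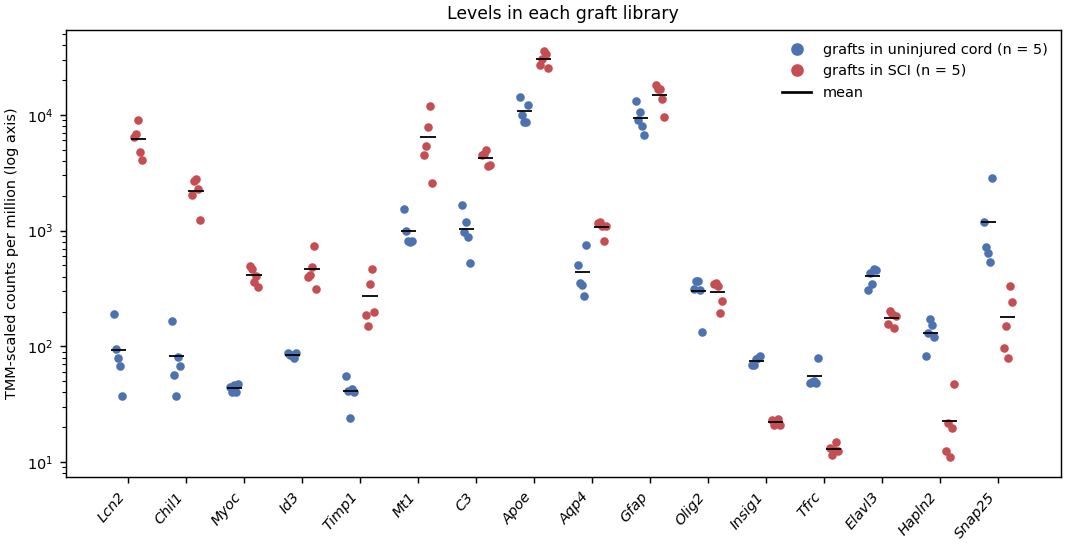
TMM-scaled CPM on a log axis of 16 genes in each of the 5 SCI and 5 uninjured graft libraries, with the group mean as a bar. The SCI points of Lcn2, Chil1, Myoc and Id3 lie above all uninjured points and those of Insig1, Tfrc, Elavl3, Hapln2 and Snap25 below them, while Gfap and Olig2 overlap.

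Acute reactivity genes, which rise in astrocytes within days of inflammation or damage, were higher for 10 of 13 members, with a median log2FC of 1.70. Lcn2, which encodes the iron-siderophore binding protein lipocalin 2, was at 6397, 6822, 8933, 4787 and 4079 CPM in SCI and at 189, 95.8, 79.6, 67.1 and 37.4 in uninjured cord (log2FC 6.05 ± 0.45, adjusted p = 1.14e-05 by edgeR). Steap4, a metalloreductase, was at 156, 117, 148, 132 and 96.3 CPM against 4.89, 12.2, 8.89, 19.4 and 9.34. Timp1, a tissue inhibitor of metalloproteinases, was at 188, 151, 344, 468 and 199 CPM against 56.0, 41.5, 24, 43.0 and 40.5. In these 3 genes every SCI library was above every uninjured one, with log2FC of 3.57 ± 0.32 for Steap4 and 2.72 ± 0.32 for Timp1. The serine protease inhibitor gene Serpina3n went from 381 to 658 CPM in uninjured cord to 872 to 1961 in SCI (log2FC 1.70 ± 0.25), and Hspb1, a small heat shock protein, from 68.0 to 138 up to 153 to 471 (log2FC 1.61 ± 0.28). Tgm1, a protein cross-linking transglutaminase that the study also follows, was at 293, 231, 318, 301 and 202 CPM in SCI and 31.0, 13.2, 3.81, 16.2 and 9.08 in uninjured cord (log2FC 4.19 ± 0.44). Gfap did not pass the threshold: its levels were 17937, 16762, 16649, 13639 and 9593 CPM in SCI and 13090, 8972, 10480, 7963 and 6662 in uninjured cord, with overlapping groups (log2FC 0.66 ± 0.25, adjusted p = 0.103 by edgeR, 0.00978 by DESeq2). Without SCI 3 the number of acute reactivity genes called fell to 6. The summed level of macrophage and pan-myeloid markers, some of which share injury genes with astrocytes, was 1051 to 3839 CPM in SCI and 199 to 1749 in uninjured cord. That list had 2 of 19 tested members called higher and a median of 1.02, and its part in the acute reactivity genes was not tested.

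Receptors and early targets of gp130 signalling followed, with 6 of 14 members higher, none lower and a median of 1.07. Osmr, the oncostatin M receptor, rose by 1.49 ± 0.21 on the log2 scale, Il6ra, the interleukin-6 receptor chain, by 1.75 ± 0.30, and Il6st, gp130 itself, by 0.84 ± 0.16. The transcription factor genes Cebpd, Bcl3 and Junb rose by 2.35 ± 0.30, 1.99 ± 0.30 and 1.49 ± 0.21. Stat3 itself (0.44 ± 0.16, adjusted p = 0.0941 by edgeR) and its feedback inhibitor Socs3 (0.98 ± 0.39, adjusted p = 0.118 by edgeR) did not pass the threshold. Osmr, Cebpd, Bcl3 and Junb kept their call in all 10 fits with 1 library left out. Il6ra lost it without SCI 3, and Il6st lost it in 6 of 10 fits, with a highest adjusted p of 0.0177 without SCI 2, and also without TMM (adjusted p = 0.061).

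Of 16 complement genes tested, 5 rose and none fell (median 0.91). The central component C3 was at 4536, 4546, 4971, 3600 and 3696 CPM in SCI and at 1648, 975, 1177, 883 and 529 in uninjured cord, with no overlap (log2FC 2.03 ± 0.27, adjusted p = 0.000705 by edgeR). C1s1 and C1ra, the proteases of the first complex, rose by 2.40 ± 0.26 and 1.33 ± 0.23, and Cd59a, which blocks the terminal pore, by 1.93 ± 0.38. C3 and C1s1 kept their call in every fit with 1 library left out, C1ra lost it without SCI 3, and Cd59a lost it in 5 of 10 fits (adjusted p up to 0.0167 without SCI 4). The C1q subunits, which microglia and macrophages make, did not pass the threshold. Of 16 chemokines, 3 rose: Cxcl12 by 1.46 ± 0.25, Cxcl10 by 2.62 ± 0.52 and Cxcl14 by 1.34 ± 0.28. Cxcl12, which attracts stem and progenitor cells through Cxcr4, lay at 305 to 408 CPM against 63.6 to 197 and kept its call in all 10 fits. Cxcl10 and Cxcl14 lost theirs in 6 and 8 of 10 fits, with adjusted p up to 0.0162 without uninjured 2 and 0.0236 without SCI 3, and Cxcl14 also without TMM (0.0122).

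Metal handling changed strongly. Of 11 metallothionein and iron genes tested, 6 rose and 1 fell, with a median of 1.07. Mt1, a small cysteine-rich protein that binds zinc and copper, was at 4481, 5410, 7882, 12001 and 2587 CPM in SCI grafts 1 to 5 and at 1542, 1000, 810, 797 and 806 in uninjured grafts 1 to 5. Every SCI library exceeded every uninjured one (log2FC 2.71 ± 0.37, adjusted p = 0.000805 by edgeR). Mt2 and the brain form Mt3 rose by 2.65 ± 0.38 and 2.07 ± 0.35. All 3 metallothionein genes kept their call whichever library was left out. Ftl1, the ferritin light chain, which has near-identical copies that counting may split, was at 346, 428, 522, 553 and 728 CPM in SCI against 68.7, 146, 68.9, 65.6 and 82.6 (log2FC 2.58 ± 0.27). Cp, the copper ferroxidase ceruloplasmin, rose by 2.07 ± 0.24 and the haem-degrading enzyme gene Hmox1 by 1.07 ± 0.22. Tfrc, the transferrin receptor that imports iron, moved the other way: it was at 13.4, 11.4, 12.7, 14.8 and 12.4 CPM in SCI and 48.4, 48.8, 50.5, 48.2 and 79.2 in uninjured cord (log2FC −2.09 ± 0.20, adjusted p = 7.95e-05 by edgeR). Ftl1 was higher and Tfrc lower in all 5 SCI libraries than in any uninjured one. Hmox1 lost its call in 8 of 10 fits, with adjusted p up to 0.025 without SCI 3, and without TMM (0.0321).

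Metallothionein promoters carry metal response elements, to which the zinc-sensing factor MTF-1 binds. The 2 promoters below are from RefSeq on GRCm38.p6, run from 250 bases before to 50 bases after the gene's start, 5′ to 3′, and are shown because their genes moved together; both lie on the plus strand, Mt1 at chr8:94178839-94179138 and Mt2 at chr8:94172368-94172667. Capitals mark matches to TGCACNC or TGCGCNC on either strand.
Mt1: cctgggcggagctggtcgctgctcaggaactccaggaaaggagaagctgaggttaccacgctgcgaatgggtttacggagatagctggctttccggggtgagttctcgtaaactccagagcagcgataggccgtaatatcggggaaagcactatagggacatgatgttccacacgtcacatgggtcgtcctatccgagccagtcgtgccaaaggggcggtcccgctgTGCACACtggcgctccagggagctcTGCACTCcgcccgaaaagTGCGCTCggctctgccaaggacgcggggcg
Mt2: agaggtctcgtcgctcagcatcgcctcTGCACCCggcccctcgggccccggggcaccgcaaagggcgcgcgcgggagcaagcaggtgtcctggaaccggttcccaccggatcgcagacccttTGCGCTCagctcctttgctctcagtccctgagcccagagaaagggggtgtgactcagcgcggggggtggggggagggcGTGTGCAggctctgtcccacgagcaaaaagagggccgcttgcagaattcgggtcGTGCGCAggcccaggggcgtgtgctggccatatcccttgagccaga
Mt1 held 3 matches and Mt2 held 4. Among the 8 promoters of the list that the table holds, 4 had at least 1 match, those of Mt1, Mt2, Mt3 and Tfrc, beside 25.6% of all 27025 promoters. A match of letters is a description and not a binding site.

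Id genes are switched on by BMP receptors through SMAD factors, and 3 of them rose. Id1 was at 172, 204, 201, 443 and 102 CPM in SCI and at 22.8, 35.8, 47.3, 44.1 and 33.9 in uninjured cord (log2FC 2.61 ± 0.34, adjusted p = 0.000586 by edgeR), and Id4 rose by 1.61 ± 0.25. Of the 15 BMP and Id genes tested 4 rose, which were Id1, Id3, Id4 and the BMP pseudoreceptor gene Bambi (1.79 ± 0.33), and the median of the list was −0.09. The ligand gene Bmp7, at 2.47 to 19.4 CPM in SCI and 21.3 to 43.1 in uninjured cord, did not pass the threshold (adjusted p = 0.0128 by edgeR). Of 15 TGF-beta genes, the ligand Tgfb2 (1.72 ± 0.22) and the latent TGF-beta binding protein Ltbp2 (2.10 ± 0.40) rose. Of 14 Wnt genes, the receptor Fzd1 (1.09 ± 0.18) and the secreted Wnt antagonist Sfrp1 (1.44 ± 0.27) rose. Id1, Id3, Id4, Tgfb2 and Fzd1 kept their call in all 10 fits with 1 library left out, while Bambi, Ltbp2 and Sfrp1 lost it in 5, 4 and 4 fits (adjusted p up to 0.013 without SCI 3, 0.0134 without SCI 4 and 0.016 without SCI 3).

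Cholesterol synthesis genes fell as a group. Of 14 genes, 10 were lower in SCI and none higher, all 14 had a negative log2FC, between −1.80 and −0.67, and in 12 the groups did not overlap. Insig1, the sterol sensor that holds SREBP in the endoplasmic reticulum, was at 23.3, 21.1, 22.6, 23.6 and 21 CPM in SCI and at 69.0, 68.5, 77.8, 79.5 and 82.5 in uninjured cord. The spread within each group was small beside the gap between them (log2FC −1.76 ± 0.15, adjusted p = 3.39e-05 by edgeR). Srebf2, the master transcription factor of the pathway, fell by 1.20 on the log2 scale, from 190 to 245 CPM in uninjured cord to 68.7 to 109 in SCI. Among enzymes, Sqle, which oxidises squalene, fell by 1.32, and Hmgcs1, which acts early in the mevalonate pathway, by 1.29. These 4 genes kept their call in all 10 fits with 1 library left out. Mvd, an enzyme of the mevalonate pathway, had a log2FC of −0.67 ± 0.27 and did not pass the threshold. The number of the 14 genes called was 6 to 11 with 1 library left out, lowest without SCI 3, and 10 without both libraries numbered 5. Cholesterol made by oligodendrocytes serves myelin, and the myelin genes described below moved in the same direction; their part was not tested.

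**Figure D3:**
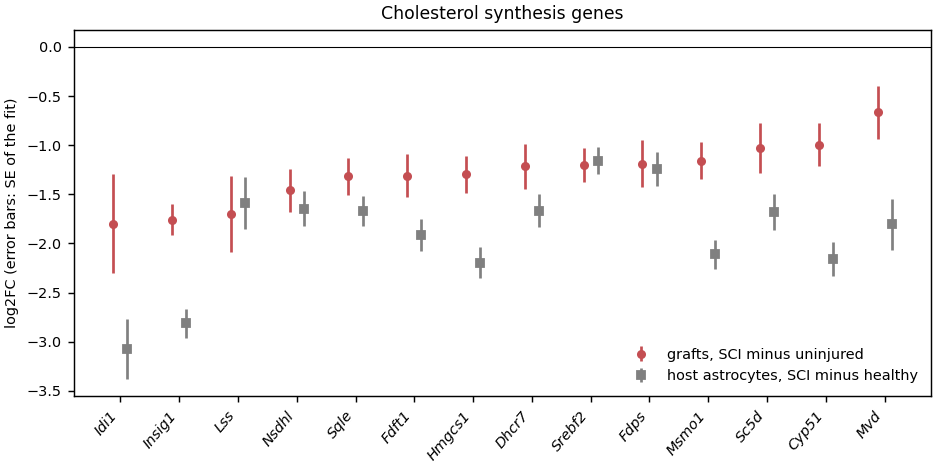
Log2FC with its SE for 14 cholesterol synthesis genes in grafts (SCI minus uninjured) and in host astrocytes (SCI minus healthy). All 14 values lie below 0 in both, between −1.80 and −0.67 in the grafts.

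SREBP binds sterol regulatory elements. The RefSeq promoter of Hmgcs1 on GRCm38.p6, chr13:119690101-119690400 on the plus strand, is shown because it was the promoter with a match among those of the list in the table. Capitals mark TCACNCCAC, searched on both strands.
Hmgcs1: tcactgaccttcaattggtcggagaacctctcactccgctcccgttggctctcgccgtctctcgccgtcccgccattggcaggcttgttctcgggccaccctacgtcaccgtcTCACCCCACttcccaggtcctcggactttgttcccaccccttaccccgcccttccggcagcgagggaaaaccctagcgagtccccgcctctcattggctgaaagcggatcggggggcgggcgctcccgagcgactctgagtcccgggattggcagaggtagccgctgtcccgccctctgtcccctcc
The match began 137 bases before the start. Of the 11 promoters of the list that the table holds, 1 had this motif, beside 1.22% of all promoters. A pattern of STAT factors, TTCNNNGAA, was searched for 2 other lists. It was in 2 of 13 acute reactivity promoters (1 of 10 called) and 1 of 13 gp130 and STAT3 promoters (0 of 5 called). Of all promoters 8.47% held it.

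Of 11 lipid handling genes, 3 that export or store lipid rose and none fell (median 1.37). Apoe, the main lipid carrier that astrocytes secrete, was at 26802, 30097, 35870, 33432 and 25539 CPM in SCI and at 14336, 9963, 8634, 8606 and 12246 in uninjured cord (log2FC 1.50 ± 0.24, adjusted p = 0.00181 by edgeR). Plin2, which coats lipid droplets, was at 119, 137, 150, 135 and 126 CPM against 68.7, 49.7, 46.5, 46.3 and 47.2 (log2FC 1.37 ± 0.17). Abca1, the pump that loads cholesterol onto apolipoproteins, rose by 1.93 ± 0.31. The 3 genes kept their call whichever library was left out. Of 11 unfolded protein response genes, Xbp1, Hspa5 and Pdia4 rose by 0.96, 0.95 and 0.95. They lost the call in 2, 7 and 9 of the 10 fits with 1 library left out (adjusted p up to 0.0122 without SCI 3, 0.0184 without SCI 3 and 0.0224 without SCI 2), and all 3 lost it without TMM (0.0176, 0.0337 and 0.0494).

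Astrocyte markers were abundant in both groups. Of 18 astrocyte markers, 4 rose and none fell, with a median of 0.51. Apart from Apoe these were Aqp4, the water channel of astrocyte endfeet, at 1167, 1183, 1104, 820 and 1092 CPM in SCI and 503, 350, 338, 270 and 748 in uninjured cord (log2FC 1.28 ± 0.26, adjusted p = 0.00625 by edgeR), the membrane protein gene Mlc1 (1.20 ± 0.21) and the gap junction gene Gja1 (1.09 ± 0.20). Aqp4, Mlc1 and Gja1 lost their call in 7, 4 and 5 of 10 fits (adjusted p up to 0.0199 without uninjured 2, 0.013 without SCI 3 and 0.0158 without SCI 3) and also without TMM (0.0126, 0.0174 and 0.0247). The glutamate transporter gene Slc1a3 had a log2FC of 0.92 ± 0.23 (adjusted p = 0.0189 by edgeR). Of 18 neural support genes the study names, the mitochondrial glutamate carrier gene Slc25a18 rose by 1.33 ± 0.19. The other member called higher was Gja1, and Slc7a10, which transports small neutral amino acids, fell by 2.66 (SE 0.59). Slc7a10 lost its call in 9 of the 10 fits, with adjusted p up to 0.0325 without SCI 3.

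None of 18 oligodendrocyte progenitor cell (OPC) markers passed the threshold in edgeR or in DESeq2 (median −0.06). Olig2, a transcription factor of the oligodendrocyte lineage, was at 345, 354, 332, 193.7 and 246 CPM in SCI and at 314, 371, 368, 307 and 133 in uninjured cord, with a log2FC of −0.02 ± 0.26 (adjusted p = 0.972 by edgeR). The OPC growth factor receptor gene Pdgfra had −0.42 ± 0.26 and Sox10 −0.29 ± 0.26. Markers of myelinating oligodendrocytes were lower: 4 of 20 fell, 19 of 20 had a negative log2FC and the median was −1.02. Hapln2, a link protein of nodes of Ranvier, was at 12.5, 21.9, 11.2, 19.9 and 47.6 CPM in SCI and at 82.0, 129, 173, 153 and 121 in uninjured cord (log2FC −2.54 ± 0.36, adjusted p = 0.000916 by edgeR), and kept its call in all 10 fits. Ermn, Aspa and Ugt8a, which act in myelin cytoskeleton, acetylaspartate breakdown and myelin lipid synthesis, fell by 2.04, 1.78 and 1.42. They lost their call in 3, 7 and 8 of 10 fits, with adjusted p up to 0.0109 without SCI 1, 0.0162 without SCI 2 and 0.0299 without SCI 3, and Ugt8a also without both libraries numbered 5 (0.0177). Mbp, the main myelin basic protein, was at 5404, 6325, 5262, 2864 and 4402 CPM against 6256, 12474, 6440, 13726 and 11938. Its groups overlapped and it did not pass the threshold (log2FC −1.07 ± 0.29, adjusted p = 0.0264 by edgeR), but it passed by DESeq2 (adjusted p = 0.000527) and by edgeR with library totals in place of TMM (0.00888). Fewer cells of a type and less RNA per cell cannot be told apart in these bulk libraries.

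Neuronal genes were lower in SCI. Of 19 neuroblast and neuron markers tested, 6 were lower and none higher, with a median of −2.04. Snap25, a synaptic vesicle fusion protein, was at 96.7, 150, 79.5, 331 and 243 CPM in SCI and at 1179, 715, 642, 534 and 2818 in uninjured cord (log2FC −2.71 ± 0.50, adjusted p = 0.00394 by edgeR). Slc32a1, the vesicular transporter of inhibitory neurons, was at 1.13, 5.94, 5.04, 7.24 and 13.0 CPM against 65.3, 45.7, 21.9, 34.1 and 208 (log2FC −3.55 ± 0.66). Elavl3, a neuronal RNA-binding protein, was at 156, 203, 190, 144 and 182 CPM against 308, 428, 348, 467 and 461 (log2FC −1.20 ± 0.18). The groups did not overlap in any of the 3 genes, and uninjured 5 was far above the rest in Snap25 and Slc32a1. Rbfox3, the neuronal nuclear antigen NeuN, fell by 2.31 and the neurofilament genes Nefl, Nefm and Nefh by 2.82, 2.67 and 2.38. Elavl3 and Rbfox3 kept their call in all 10 fits, while Snap25, Slc32a1, Nefl, Nefm and Nefh lost it in 3, 3, 4, 4 and 4 fits, with adjusted p up to 0.0144 without SCI 2, 0.0154 without SCI 3, 0.0121 without SCI 3, 0.0137 without SCI 3 and 0.0157 without SCI 3. The number of the 19 markers called lower was 2 without SCI 2 or SCI 3, 3 without SCI 1 or SCI 4, 9 without SCI 5 and 8 without both libraries numbered 5.

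Markers of spinal cord neurons, some of them near 0 in the cultures, were lower in the same libraries. In CPM of library totals, Snap25 was at most 8.24 in the 69 culture libraries, 110 to 182 in healthy host astrocytes and 600 to 2915 in the uninjured grafts. Chat, the enzyme of motor neurons, was at most 0.132 in cultures, 0 to 1.24 in SCI grafts and 1.77 to 30.6 in uninjured grafts. Not all genes low in the cultures separated the groups. Xist was at 12.5 to 122 in SCI and 10.6 to 65.0 in uninjured grafts. The macrophage marker Cd68, at most 4.74 in cultures, was at 39.7 to 176 and 13.8 to 106. On the TMM scale, the summed level of 10 spinal cord neuron markers was 169 to 539 CPM in SCI and 933 to 4821 in uninjured cord, with no overlap and no marker at 0 throughout, and 2 of 9 tested members fell. Hox genes of trunk segments, a list labelled thoracic Hox here though not limited to thoracic members, summed to 187 to 320 CPM in SCI against 310 to 704. These sums overlapped. Of 11 tested members 1, Hoxc10, fell (−2.39 ± 0.47), a call lost in 6 of 10 fits (adjusted p up to 0.0191 without uninjured 5) and without both libraries numbered 5 (0.0143). How far host neurons account for the fall of neuronal genes was not tested.

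The summed levels of other cell types overlapped between the groups, but the members of some lists shifted together. Microglia markers summed to 234 to 977 CPM in SCI and 222 to 894 in uninjured cord with none of 8 members called. Fibroblast markers summed to 1082 to 5111 and 1467 to 4254 with 1 of 9 lower, a median log2FC of −1.09 and 1 of 9 positive. Fibroblast sums were 1082 to 1909 in SCI 1 to 4. Without both libraries numbered 5, 2 fibroblast markers were lower (median −1.56). Endothelial markers summed to 29.7 to 121 CPM against 58.3 to 442, with a median log2FC of −2.32 and no member positive. Of the 10 members 2 fell: Slco1a4, a transporter of the blood-brain barrier, by 3.10 and Ly6c1, an endothelial surface protein, by 3.06. The 1 lymphocyte marker called of 5 tested was Ighm, an immunoglobulin heavy chain, which fell by 1.66. These 3 genes lost their call in 3, 3 and 8 of 10 fits, with adjusted p up to 0.0137, 0.0122 and 0.0238, each without SCI 3. Macrophage and pan-myeloid markers had a median log2FC of 1.02, with 16 of 19 positive. Their sums were 1051 to 1740 CPM in SCI 1 to 4 and 199 to 677 in uninjured 1 to 4, with uninjured 5 at 1749. Without both libraries numbered 5, the number called higher was 5 (median 1.41). The 2 macrophage and pan-myeloid genes that rose were Gpnmb, a glycoprotein of lipid-laden phagocytes, at 239 to 1053 CPM against 27.6 to 162, and Cd14, the endotoxin co-receptor, at 32.7 to 64.0 against 15.3 to 20.3. Cd14 kept its call in all 10 fits and Gpnmb lost it in 3, with adjusted p up to 0.0108 without uninjured 2. No member of the microglia, mural cell, Schwann cell, neutrophil, erythroid or skeletal muscle lists was called by edgeR, and Y-linked genes, of which none was tested, summed to at most 0.065 CPM in any graft library.

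**Figure D4:**
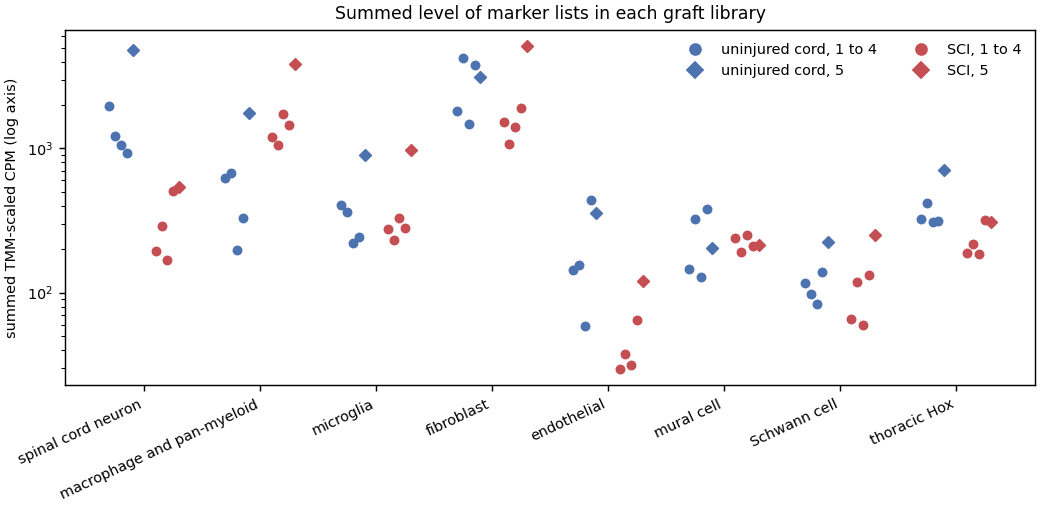
Summed TMM-scaled CPM on a log axis of 8 marker lists in each graft library, with the libraries numbered 5 as diamonds. Spinal cord neuron markers separate the groups at 169 to 539 CPM in SCI and 933 to 4821 in uninjured cord, the other lists overlap, and libraries numbered 5 are the highest of their group for microglia and macrophage markers.

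Several lists that injury is known to move in the cord had no member called here by edgeR. Beside the 4.64% of all genes that were called, lists this short can hold none without standing out. None of 24 interferon-stimulated genes was higher or lower (median −0.14), nor of 10 MHC class I genes (0.41), 7 MHC class II genes (0.15), 15 fibrillar matrix genes (−0.21) or 13 basement membrane genes (0.11). The same held for 18 cell cycle genes (median 0.75, with 16 of 18 positive), 14 progenitor genes (−0.05), 15 Notch genes (−0.46), 7 hedgehog genes (−0.93), 12 growth factors (0.29) and 15 hypoxia and glycolysis genes (−0.50). At an unadjusted p below 0.05, 4336 of all genes would pass. By the DESeq2 Wald test, which called 915 genes higher and 1003 lower, 1 fibrillar matrix, 1 MHC class I, 1 cell cycle, 1 progenitor, 1 Notch, 1 hedgehog, 3 mural cell, 3 growth factor and 3 hypoxia and glycolysis genes passed. By edgeR without both libraries numbered 5, 3 fibrillar matrix genes were lower (median −0.75). In that fit 1 progenitor gene and 1 hypoxia and glycolysis gene were higher. Of 13 proteoglycan and tenascin genes 2 fell, Hapln2 and Hapln4, a link protein of perineuronal nets (−1.99 ± 0.42). Of 10 ependymal and cilium genes 1 rose, Cfap126 (1.43 ± 0.30), and of 12 immediate early genes 1 rose, Junb. Hapln4 and Cfap126 lost their call in 6 and 8 of 10 fits (adjusted p up to 0.0241 and 0.0249, each without SCI 1), and Cfap126 without TMM (0.022).

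The study assembled larger gene panels, mostly from published data on healthy and reactive neural cells. Only the genes that could be read were used, which for reactivity is well short of the full panel. Of 394 astrocyte panel genes 46 rose, including Id3, Myoc and Chil1, and 4 fell. The number that rose was 26 to 30 without SCI 1, 2 or 3 or uninjured 2 or 4, lowest without SCI 3, and 69 without both libraries numbered 5. Of 101 oligodendroglia panel genes none rose and 19 fell, among them Anln (−2.46), the deacetylase gene Hdac11 (−1.82) and Pex5l (−1.92), which all kept their call with any 1 library left out. The number that fell was 7 to 12 without SCI 1, 2, 3 or 4 or uninjured 2, 4 or 5, lowest without SCI 1 or SCI 3. Of 195 neuronal panel genes 2 rose and 38 fell, among them the prohormone convertase gene Pcsk2 (−2.10) and the glutamate receptor gene Gria3 (−1.90). The number lower was 10 to 18 without any one of SCI 1 to 4, lowest without SCI 3, and 64 without SCI 5 (61 without both libraries numbered 5). Of 97 reactivity panel genes 11 rose and none fell, including Tgm1, Timp1 and the inhibitory Fc receptor gene Fcgr2b (3.17 ± 0.33), and the panel also holds genes of myeloid cells. The number that rose was 6 or 7 without SCI 1, 2, 3 or 4 or uninjured 2 or 4, and 21 without both libraries numbered 5. Of 29 progenitor panel genes 2 rose, of which Igfbp4, an insulin-like growth factor binding protein (2.45 ± 0.29), kept its call in all 10 fits. The 1 that fell was the synaptic pentraxin gene Nptx1 (−2.11 ± 0.42), whose call was lost in 6 of 10 fits (adjusted p up to 0.0193 without SCI 3). Of 187 epithelial-mesenchymal transition panel genes 17 rose, such as the stress gene Gadd45b (1.56 ± 0.23), and 5 fell. The number that rose was 9 to 11 without SCI 1, 2 or 3 or uninjured 2 or 4, lowest without SCI 3.

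Other genes the study follows in reactive and border cells did not pass the threshold. Cd22 had a log2FC of 1.96 ± 1.08 with levels of 6.43 to 27.6 CPM in SCI and 0 to 9.65 in uninjured cord, and Ms4a7 had 2.05 ± 1.19 at 4.68 to 13.2 against 0 to 4.66. Anpep, an aminopeptidase, was at 34.9 to 127 CPM in SCI and 13.4 to 45.4 in uninjured cord (log2FC 0.90 ± 0.39). Clec4d had 4.21 ± 1.63 and the transcription factor gene Snai2 2.29 ± 0.82. Snai2 was at 5.96 to 7.75 CPM in SCI against 0.0321 to 2.35, so that its groups did not overlap. Ddx3y, a Y-linked gene, was too low to be tested.

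The 10 largest increases among genes with at least 10 CPM in a group and no overlap were Saa2, Il17b, Lcn2, Cyp26a1, Slpi, Sgca, Chil1, Tgm1, Steap4 and Ptx3. Saa2, an acute phase apolipoprotein, was at 23.8, 14.6, 38.5, 76.0 and 18.2 CPM in SCI and at 0, 0.556, 0.0256, 0 and 0.206 in uninjured cord (log2FC 7.74 ± 1.05, adjusted p = 0.00074 by edgeR). The cytokine gene Il17b (6.44 ± 1.20), Cyp26a1, which breaks down retinoic acid (5.92 ± 1.13), the antiprotease gene Slpi (5.80 ± 0.92) and Sgca (4.89 ± 1.01) were also close to 0 in uninjured cord, so that their log2FC depends on the prior count of the fit. Ptx3, a long pentraxin of innate immunity, was at 449 to 1621 CPM against 30.3 to 119 (3.43 ± 0.40). Saa2, Slpi and Ptx3 kept their call in all 10 fits with 1 library left out, while Il17b, Cyp26a1 and Sgca lost it in 4, 4 and 6 (adjusted p up to 0.0136 without SCI 2, 0.0172 without SCI 4 and 0.0234 without SCI 3).

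Hipk4, Serpinb1a, Slc32a1, Sgpp2, Pi16, Sez6l2, Sst, Slco1a4, Cend1 and Zmat4 were the 10 largest decreases by the same rule. Pi16, a secreted protein of fibroblasts, was at 2.42, 2.81, 3.41, 6.45 and 10.9 CPM in SCI and at 22.1, 65.1, 14.7, 73.5 and 68.7 in uninjured cord (log2FC −3.24 ± 0.53, adjusted p = 0.00198 by edgeR). The sphingosine phosphatase gene Sgpp2 fell by 3.44 and the neuronal membrane protein gene Sez6l2 by 3.22, from 171 to 798 CPM to 22.5 to 132. These 3 kept their call in all 10 fits. The kinase gene Hipk4 (−4.79), the protease inhibitor gene Serpinb1a (−3.82), the inhibitory neuropeptide gene Sst (−3.17), the neuronal differentiation gene Cend1 (−3.08) and Zmat4 (−3.06) lost it in 5, 6, 4, 4 and 3 fits (adjusted p up to 0.0208 without SCI 2 for Hipk4 and 0.0173, 0.0171, 0.0183 and 0.0122 without SCI 3 for the others), and Hipk4 also without both libraries numbered 5 (0.0127).

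Cultures of the line, which hold no host tissue, were used to see which changed genes are detected there. The minimum is low: Snap25 passed it at 1.35 to 2.00 CPM in passage 5 cultures, against 600 to 2915 in the uninjured grafts, in CPM of library totals. Detection therefore does not show that grafted cells make the RNA at graft levels. Of the 330 higher genes, 328 (99.4%) reached a mean of 1 CPM in at least 1 of the 16 culture groups, beside 88.0% of all genes tested, and of the 404 lower genes 356 (88.1%) did. Together 684 of 734 (93.2%) were detected there. At a minimum of 5 CPM the figures were 318 of 330, 283 of 404 and 77.2% of all genes.

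For the animal's own astrocytes, SCI was compared with healthy cord. The baselines differ: the uninjured grafts lay in cord that had been injected with cells and hydrogel. In the striatum, the study describes grafted cells beside injection wounds as resembling border-forming astroglia. How far this enters the differences below was not tested. The difference between the graft and host changes was tested in 1 fit. It passed an adjusted p below 0.01 for 2947 of 17536 genes (16.8%), higher in grafts for 1072 (6.11%) and lower for 1875 (10.7%). The host groups are not a matched pair: summed Y-linked genes ranged from 0.0533 to 102 CPM of library totals in the 9 healthy libraries and were at most 0.0512 in the 5 SCI libraries. Of the 330 genes higher in grafts 265 had a positive host log2FC. For 157 the difference passed the test, with a larger or opposite graft change in 124. Of the 404 lower genes 260 had a negative host log2FC and 230 passed, 225 of them with a larger or opposite graft change. These genes were chosen by their graft change, which is itself part of the difference, so the numbers that passed are not independent of that choice.

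Of the 6 glia limitans genes, the change was higher in grafts for 3 and lower for 1, and for 2 the difference did not pass the test. Myoc had a log2FC of 3.23 in grafts and of −2.36 ± 0.20 in host astrocytes (difference 5.57 ± 0.30, adjusted p = 3.26e-12 by edgeR). Chil1 rose in both, by 4.74 and 1.41, with a difference of 3.30 ± 0.39, and Id3 by 2.47 and 0.99, with a difference of 1.45 ± 0.22. Vim also rose in both, but by more in hosts (2.59 ± 0.18), with a difference of −1.30 ± 0.27 (adjusted p = 0.000649 by edgeR). Igfbp4, Tgfb2, Gja1 and Slc25a18 rose in grafts and fell in hosts, with differences of 3.46 ± 0.30, 2.31 ± 0.21, 2.71 ± 0.33 and 2.52 ± 0.21. Aqp4 (1.60 ± 0.36), Apoe (1.28 ± 0.26) and Mt1 (1.76 ± 0.43) also had a higher change in grafts. Of the 18 astrocyte markers 14 had a higher change in grafts, with a median host log2FC of −1.02 beside 0.51.

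Acute reactivity genes had a lower change in grafts for 8 of 13 and a higher one for none, with a host median of 3.36 beside 1.70. The host log2FC was 8.96 ± 0.57 for Lcn2, 7.91 ± 0.41 for Tgm1, 6.47 ± 0.43 for Steap4, 5.40 ± 0.30 for Timp1, 4.19 ± 0.23 for Serpina3n and 3.02 ± 0.14 for Osmr. The differences were −2.94 ± 0.71, −3.74 ± 0.54, −2.92 ± 0.60, −2.71 ± 0.43, −2.52 ± 0.34 and −1.55 ± 0.22. Gfap (0.58 ± 0.25, adjusted p = 0.0831 by edgeR) and C3 (0.82 ± 0.29, adjusted p = 0.034 by edgeR) did not pass. Interferon-stimulated genes, with a host median of 2.67, had a lower change in grafts for 18 of 24, and fibrillar matrix genes, with a host median of 3.21, for 13 of 15. Ms4a7 also had a lower change in grafts (difference −4.98 ± 1.36, adjusted p = 0.00742 by edgeR), and Cd22 had a difference of −4.96 ± 1.43 (adjusted p = 0.0106 by edgeR). Ms4a7 lost its call in 14 of 24 fits that left out 1 library (SCI 1 to 4, uninjured 2, 4 or 5, host astrocytes 1, 3, 4, 5 or 7, or host astrocytes after SCI 2 or 5), with differences of −5.06 to −4.003. Cd22 gained one in 5 of 24 (SCI 5, uninjured 1 or 3, or host astrocytes 3 or 5) and C3 in 1 of 24 (uninjured 1, difference 1.08).

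**Figure D5:**
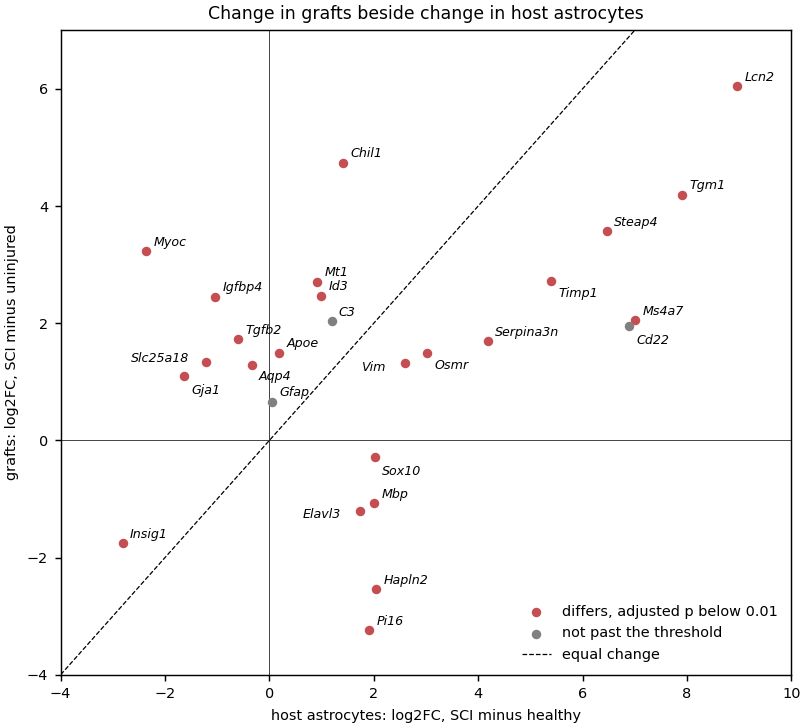
Log2FC in grafts (SCI minus uninjured, vertical) against log2FC in host astrocytes (SCI minus healthy, horizontal) for 27 genes, in red where the difference passed the test. Myoc, Igfbp4, Tgfb2, Gja1, Slc25a18 and Aqp4 lie above 0 in grafts and below 0 in hosts, and the oligodendroglial and neuronal genes Mbp, Sox10, Hapln2 and Elavl3 the other way.

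All 14 cholesterol synthesis genes had a negative log2FC after SCI in both kinds of cell, with a median of −1.25 in grafts and −1.74 in hosts. The difference passed the test for 4 of 14, each with the smaller fall in grafts, and Insig1, with −2.81 ± 0.14 in hosts, was 1 of them (difference 1.03 ± 0.19, adjusted p = 0.000206 by edgeR). Myelinating oligodendrocyte markers differed for 20 of 20, with a host median of 1.52 beside −1.02. Mbp (−3.10 ± 0.31), Hapln2 (−4.61 ± 0.39), Sox10 (−2.34 ± 0.30), Elavl3 (−2.97 ± 0.20) and Pi16 (−5.18 ± 0.66) had lower changes in grafts. These genes are not astrocyte genes, and how far RNA of other cells enters the host astrocyte libraries was not tested.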

How the data were processed

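RNA bound to haemagglutinin-tagged ribosomes was sequenced from single graft sites or cords. The deposited values are counts of reads per gene, 1 file per library, with no normalization; per the labels the authors used Trimmomatic, HISAT2 and featureCounts on mm10, and versions are not given in the sources used here. Each file held 27179 gene identifiers, of which 25275 were named from RefSeq and 18 from GENCODE M21, and 1886 without a name were tested but not reported. Groups were taken from the sample titles. Counts passed filterByExpr of edgeR 4.0.16 in R 4.3.3 (minimum count 10), were scaled by TMM and tested with the quasi-likelihood F test. Genes with a Benjamini-Hochberg adjusted p below 0.01 were called changed. The SE of a log2FC is its size divided by the square root of F. The difference between grafts and host astrocytes was an interaction term over 24 libraries. Levels are TMM-scaled CPM unless CPM of library totals is stated, which serves wherever cultures or hosts are compared. Levels are not divided by gene length, so they compare libraries and not genes.

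On simulated counts for the graft comparison, with 100 genes changed 4-fold and 100 changed 16-fold among 15813, the script recovered 86 and 99 with 3 false calls. For the interaction over 17536 genes it recovered 94 and 100 with 0 false calls. The changed genes were drawn from those with a mean of at least 10 CPM, with as many raised as lowered. Recovery of rarer genes, or under a one-sided shift, was not tested. No pair of libraries of a group differed by as little as sampling noise (chi-square per degree of freedom at least 91.8).

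Members and gene lists were chosen with earlier results of these data known. Named genes were the 10 largest increases and 10 largest decreases among called genes whose groups did not overlap and whose mean reached 10 CPM in either group, up to 4 called members of each list with the smallest p, and a set of genes the study follows. List members that did not pass were added for completeness. Of the entries that could be read from the study's panels 400 of 428 astrocyte, 102 of 112 oligodendroglia, 201 of 211 neuronal, 29 of 32 progenitor, 99 of 109 reactivity and 192 of 196 epithelial-mesenchymal transition entries matched a gene. The astrocyte, neuronal, reactivity and epithelial-mesenchymal transition panels are larger than this in the study, by far the most for reactivity. Alternatives were DESeq2 1.42.0 (size factors in edgeR and its Wald test), no filter, a filter of 1 CPM in 5 libraries, a fit with all 14-day graft groups, a replicate block, leaving out each library and other detection minimums for cultures. Added after seeing the data were library totals without TMM, leaving out both libraries numbered 5, and the log2FC from the 4-group fit. Promoters were searched with Python 3.11.15. Embryonic stem cell libraries and the grafts in other settings were not reported. Some cholesterol genes are not reported here and were left out of that list's counts.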

Additional observations from a re-analysis of the deposited data

Results flagged for a closer look

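In groups of 5, single libraries stood apart from the rest in 14 of 64 values examined. The cutoff is passed by about 1 in 20 independent values with a normal spread. The values here were not independent, since Snap25 is also a member of the summed spinal cord neuron markers, so that share is not a fair yardstick. Uninjured 5 was apart for Snap25 (2818 CPM), Slc32a1 (208), Tfrc (79.2), Olig2 (133) and the summed spinal cord neuron (4821), microglia (894) and thoracic Hox (704) genes. SCI 5 was apart for the summed macrophage and pan-myeloid (3839), microglia (977) and fibroblast (5111) markers. The remaining ones were Mt1 (1542) and Plin2 (68.7) in uninjured 1, Ftl1 (146) in uninjured 2 and Aqp4 (820) in SCI 4.

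The change with SCI differed between grafts and host astrocytes for 2947 genes by the interaction test. Of the 109 genes whose graft log2FC is printed, the difference passed with a higher graft change in 27 and a lower one in 39. Among those whose difference is printed, the graft change was higher for Myoc (5.57), Igfbp4 (3.46), Chil1 (3.30), Gja1 (2.71), Slc25a18 (2.52), Tgfb2 (2.31), Mt1 (1.76), Aqp4 (1.60), Id3 (1.45), Apoe (1.28) and Insig1 (1.03), in log2 units. It was lower for Pi16 (−5.18), Ms4a7 (−4.98), Hapln2 (−4.61), Tgm1 (−3.74), Mbp (−3.10), Elavl3 (−2.97), Lcn2 (−2.94), Steap4 (−2.92), Timp1 (−2.71), Serpina3n (−2.52), Sox10 (−2.34), Osmr (−1.55) and Vim (−1.30).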

How the results depend on the processing

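The number of changed genes in the graft comparison was 734 (330 higher, 404 lower) as reported, 1918 (915 and 1003) by the DESeq2 Wald test, 1377 (174 and 1203) with library totals in place of TMM, 1431 (717 and 714) without both libraries numbered 5 and 2890 (1221 and 1669) when host astrocytes shared the fit. Leaving out 1 library gave 232 to 1576 changed genes, 136 to 753 higher and 96 to 823 lower. DESeq2 size factors, no filter, the filter of 1 CPM and the fit with all 14-day grafts kept the total within 1.5 times. For the difference from host astrocytes, leaving out 1 library gave 2432 to 3628 genes, 819 to 1380 higher and 1536 to 2248 lower. Detection in cultures at 0.1 CPM held for 725 of the 734 changed genes and at 5 CPM for 601. The cause of these shifts was not tested.

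Libraries of the 2 graft groups share replicate numbers, but the correlation of same-numbered deviations was −0.03 to 0.09 and 2 of 5 libraries correlated best with their own number, so the numbers were not taken to pair the libraries. With the replicate block 677 genes were called in grafts (259 higher, 418 lower, 535 shared with the main result), and 13 genes whose log2FC is given lost their call: C4b, Cxcl10, Cxcl14, Bambi, Hspa5, Ugt8a, Hoxc10, Il17b, Sgca, Serpinb1a, Cfap126, Hmox1 and Il6st, with adjusted p of 0.011 to 0.0211 by edgeR. With the block 1695 (532 and 1163) differed from host astrocytes, without Mt1, Aqp4 and Ms4a7 (differences 1.77, 1.31 and −4.73). By DESeq2, Gfap, Mbp and Slc1a3 gained a call. Of 109 genes whose graft log2FC is given, 1 changed sign under any setting: Olig2, from −0.02 to 0.0267 with the block and −0.21 to 0.10 with 1 library left out, above 0 without SCI 4, SCI 5, uninjured 2 or uninjured 3. With 5 libraries a group, genes that change less than 4-fold, or are near 0 in a group, can be missed.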

Other observations

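Families picked by symbol after the values were seen added 2 patterns. Of 81 cytosolic ribosomal protein genes tested, which build the ribosome that the tag sits on and have many near-identical pseudogenes, 25 were higher in SCI grafts and none lower, 80 had a positive log2FC and the median was 0.88. The number called was 4 without SCI 3 and 4 without uninjured 4, 52 without SCI 5, and 6 with library totals in place of TMM, where the median was 0.62. In host astrocytes 29 of the 81 were higher after SCI and none lower, with a median of 0.51. Over all 15813 genes tested in grafts the host median was 0.03. The share of all genes called in the host comparison is not given here, so the 29 have no yardstick. Of the 81 Kcn genes described next, 11 were called higher and 21 lower in the same host comparison. Of 81 Kcn potassium channel genes 10 were lower in SCI grafts and none higher (median −0.89), and of 11 Scn sodium channel genes 4 were lower (median −1.39), both together with the spinal cord neuron markers. The number of Kcn genes called lower was 4 without SCI 1, SCI 2 or SCI 3, 17 without SCI 5 and 21 with library totals in place of TMM. No Scn gene was called without SCI 2, SCI 3 or SCI 4, and 1 without SCI 1.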
